A study of Homo sapiens with 6 samples.

Results

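The unfolded protein response was read from 10 genes of its IRE1, XBP1 and ATF6 branches: the sensor and factor genes ERN1, XBP1 and ATF6, the chaperone genes HSPA5, HSP90B1, DNAJB9 and DNAJC3, and the degradation genes HERPUD1, SEL1L and EDEM1. They were picked by symbol, with earlier results of these data known, and all 10 were found among the 54259 gene symbols of the deposited count table and had enough reads to be tested. The RNA-Sequence data came from MDA-MB-231 cells, an established human breast cancer line with mesenchymal features. MDA-MB-231 shBry cells carry a short hairpin RNA against brachyury (3 libraries), MDA-MB-231 shNC cells carry a control hairpin (3 libraries), and the hairpin is the difference between the groups that the labels give. No other treatment, time point or clone number is given, and the labels do not say whether the libraries of a group came from separate cultures, so p-values measure the spread between these libraries, which may be technical.

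The endoplasmic reticulum (ER) folds secreted and membrane proteins, and unfolded protein there is sensed by 3 membrane proteins, IRE1, ATF6 and PERK. IRE1, encoded by ERN1, is a kinase and ribonuclease that cuts a short intron out of XBP1 mRNA, and the rejoined mRNA encodes the active transcription factor XBP1s. ATF6 travels to the Golgi, where it is cut by proteases, and its released part enters the nucleus. Both factors raise genes for ER chaperones and for ER-associated degradation (ERAD), which moves misfolded proteins to the proteasome.

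The XBP1 intron is shown because it is the substrate of IRE1 and because a count per gene cannot show whether it was removed. In GENCODE 29 on GRCh38 it has 26 bases and lies in the coding part of exon 4 of transcript XBP1-201, at chr22:28796122-28796147 on the minus strand, and transcript XBP1-202 lacks it. Capitals mark the intron as annotated, with 30 bases on each side. The bases at its ends repeat, so moving both ends by up to 6 bases towards the 5′ side gives the same joined mRNA.
XBP1: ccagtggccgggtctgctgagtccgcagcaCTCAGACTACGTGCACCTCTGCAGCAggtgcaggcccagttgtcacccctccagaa

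Matches to known ER stress elements in the members' promoters are shown because ATF6 and XBP1s act through such elements. The windows ran from 250 bases before to 50 after the start site (RefSeq, GRCh38.p14), and all 10 genes matched, with 11 windows because XBP1 has 2. The ER stress response element (ERSE) was searched as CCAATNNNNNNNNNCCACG and ERSE-II as ATTGG and CCACG separated by 1 base, on both strands. In the lines that follow, capitals mark the match, with 5 bases on each side, read on the strand of the gene.
XBP1 ERSE, chr22:28800603-28800621, minus strand: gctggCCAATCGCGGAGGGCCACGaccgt
HSPA5 ERSE, chr9:125241391-125241409, minus strand: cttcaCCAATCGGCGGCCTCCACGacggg
HSP90B1 ERSE, chr12:103930216-103930234, plus strand: cctgaCCAATCGGAAGGAGCCACGcttcg
HSP90B1 reversed ERSE, chr12:103930321-103930339, plus strand: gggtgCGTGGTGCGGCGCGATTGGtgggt
HERPUD1 ERSE-II, chr16:56932025-56932035, plus strand: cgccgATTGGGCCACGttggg
The matches began 52 bases before the start site in XBP1, 66 in HSPA5, 194 and 89 in HSP90B1 and 117 in HERPUD1. ERSE was found in 3 of the 11 member windows and in 27 of all 35116 promoter windows (0.0769%). ERSE-II was found in 1 member window and in 19 of all windows (0.0541%). The elements are known from genes of this response, and the members were picked as such genes. The shares are thus a description and not a test. The core TGACGTG of the unfolded protein response element, searched on both strands, was in no member window and in 1.97% of all windows. A match is a run of letters and not a shown binding site, and these letters were not found in the windows of ERN1, ATF6, DNAJB9, DNAJC3, SEL1L and EDEM1.

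Between 19319411 and 22985371 reads were counted per library. Brachyury, listed under its older symbol T, had 0 counts in all 6 libraries, so the knockdown could not be checked on its target. The paper describes brachyury as constitutively overexpressed in this line, whereas the shNC libraries also had no counted reads of it. The reason for this difference was not tested. The deposited design text calls the RNA pericardial, whereas the sample labels give MDA-MB-231. All 6 markers chosen for that line (VIM, CD44, AXL, CAV1, KRT18 and MSN) had at least 10 counts in every library. Their summed level was 6888 to 7069 CPM (read counts scaled to a common library total) in shBry and 8019 to 8426 in shNC. CAV1 was called lower in shBry (log2 fold change -1.11, edgeR, adjusted p = 1.39e-07). At an adjusted p under 0.05 in edgeR without a fold limit, 4 of the 6 were lower and 2 higher, beside 25.3% and 28% of all tested genes. Of 5 pericardial mesothelial markers, MSLN and CALB2 passed 10 counts in every library, ITLN1 was at 0 throughout, and WT1 and UPK3B had at most 7 counts. CALB2 was called lower in shBry (log2 fold change -2.52, edgeR, adjusted p = 0.00727), with 222 counts in shNC replicate 3 and 29 and 30 in the other shNC libraries. For these 5 genes the summed level was 44.4 to 48.7 CPM in shBry and 35.3 to 39.6 in shNC. Of 4 luminal breast markers, GATA3 alone passed 10 counts in every library, with ESR1, PGR and CDH1 at or near 0. The summed leukocyte markers reached at most 0.104 CPM in shBry and 0.23 in shNC, with PTPRC and TYROBP at 0.

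Members were compared by edgeR's quasi-likelihood test fitted over all 15277 genes that passed the expression filter. A gene was called when its Benjamini-Hochberg adjusted p over all tested genes was under 0.05 and its fold change exceeded 1.5, which is 0.585 on the log2 scale. In shBry, 7 of the 10 genes were called higher than in shNC (ERN1, XBP1, HSPA5, DNAJB9, DNAJC3, HERPUD1 and SEL1L) and none was called lower. Of all tested genes, 17.1% were called higher and 15.2% lower. ATF6, HSP90B1 and EDEM1 also had adjusted p under 0.05 in edgeR, but their fold changes were under 1.5. Without the fold limit all 10 were higher, where 28% of all tested genes were, and none was lower, also at an unadjusted p under 0.05. With a fold limit of 2, 6 members were called higher, where 8.21% of all tested genes were. The 3 shBry libraries lay above the 3 shNC libraries for all 10 genes, where 30.6% of all tested genes had this order. The median log2 fold change of the 10 genes was 1.23, beside 0.03 for all tested genes. In bulk RNA, more RNA in each cell and more cells that express a gene cannot be told apart.

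**Figure D1:**
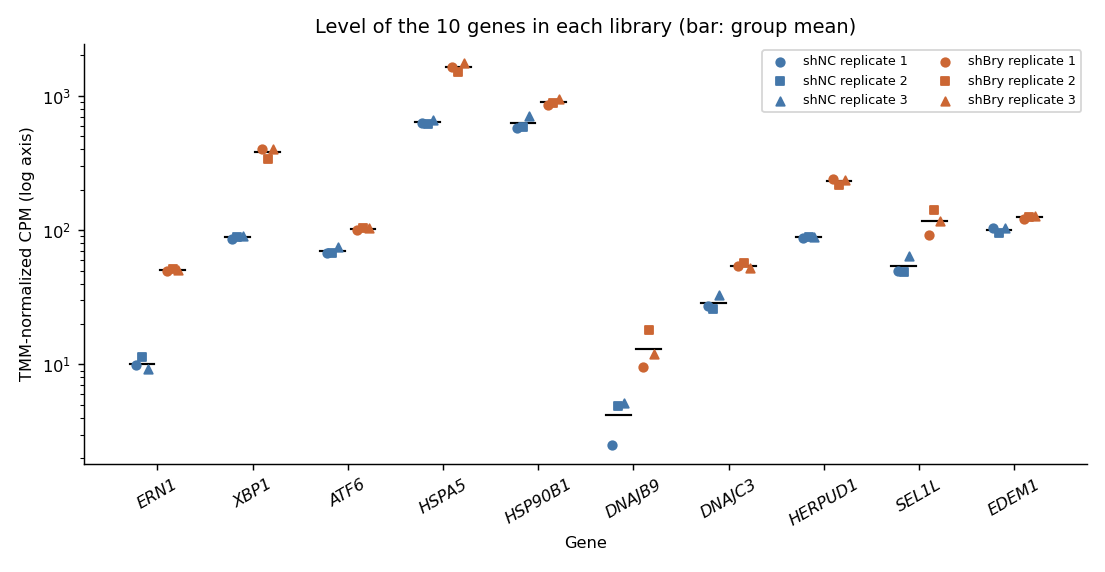
TMM-normalized CPM (log axis) of the 10 genes in each of the 3 shNC (blue) and 3 shBry (orange) libraries, with replicate numbers as symbols and group means as bars. The shBry points lie above the shNC points for every gene, with the widest gap for ERN1 (10.1 against 50.6 CPM) and XBP1 (88.2 against 380 CPM).

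Among the sensors and factors, ERN1 and XBP1 rose 4.98-fold and 4.31-fold, while ATF6 stayed under the fold limit. Levels here and below are in CPM scaled by the TMM method, and fold changes are shBry over shNC.
ERN1, which encodes the stress sensor IRE1 alpha, spans bases 64039142 to 64130819 of chromosome 17 (GRCh38, minus strand). It had 49.8, 51.7 and 50.3 CPM in shBry replicates 1, 2 and 3, and 9.85, 11.3 and 9.21 CPM in shNC replicates 1, 2 and 3. The shBry libraries lay close together and far above shNC. ERN1 rose from a shNC mean of 10.1 ± 1.09 CPM to a shBry mean of 50.6 ± 0.997 CPM (SD, n = 3), which was 2.32 in log2 units (standard error 0.11, adjusted p = 1.26e-09 in edgeR) or 4.98-fold with a 95% interval of 4.21 to 5.9. Its fold change exceeded that of 98.7% of tested genes.
XBP1, on chromosome 22 from 28794555 to 28800597 on the minus strand, encodes the transcription factor whose mRNA IRE1 splices. It had 401, 338 and 400.1 CPM in shBry and 85.2, 89.1 and 90.2 CPM in shNC. The shBry replicate 2 library was the lowest of its group and still above every shNC library. XBP1 rose from a shNC mean of 88.2 ± 2.61 CPM to a shBry mean of 380 ± 36.3 CPM (SD, n = 3), which was 2.11 in log2 units (standard error 0.09, adjusted p = 2.53e-10 in edgeR) or 4.31-fold with an interval of 3.77 to 4.91. These reads are the sum of spliced and unspliced XBP1 mRNA.
ATF6, on chromosome 1 from 161766294 to 161964070 on the plus strand, encodes the sensor that is itself a membrane-bound transcription factor. It had 100.1, 103 and 103 CPM in shBry and 67.4, 67.8 and 74.5 CPM in shNC, with no overlap between groups. Its log2 fold change was 0.55 (standard error 0.08, edgeR, adjusted p = 6.25e-05), or 1.46-fold. The interval of 1.3 to 1.65 included the limit of 1.5, so the data do not place ATF6 on one side of it.

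Among the chaperones and co-chaperones, HSPA5, DNAJB9 and DNAJC3 rose, and HSP90B1 was under the fold limit. HSPA5, on chromosome 9 from 125234853 to 125241330 on the minus strand, encodes BiP, the main Hsp70 of the ER, which also binds the sensors and keeps them inactive. It had 1634, 1499 and 1749 CPM in shBry and 624, 615 and 662 CPM in shNC. The lowest shBry library was far above the highest shNC library. HSPA5 rose from a shNC mean of 634 ± 24.8 CPM to a shBry mean of 1627 ± 125 CPM (SD, n = 3), which was 1.36 in log2 units (standard error 0.08, adjusted p = 9.81e-09 in edgeR) or 2.57-fold with an interval of 2.27 to 2.9. Other genes, among them AL354702.1, share 9.59% of its 50-base stretches.
HSP90B1, on chromosome 12 from 103930107 to 103953645 on the plus strand, encodes GRP94, the Hsp90 chaperone of the ER. It had 849, 889 and 939 CPM in shBry and 578, 582 and 706 CPM in shNC, where replicate 3 stood above the other libraries of its group. Its log2 fold change was 0.52 (standard error 0.09, edgeR, adjusted p = 0.000244), or 1.44-fold with an interval of 1.25 to 1.64. Without shNC replicate 3 the log2 fold change was 0.60 (edgeR, adjusted p = 9.56e-05), which passed the limit. Exons of MIR3652 cover 4.57% of its exon bases, and 7.36% of its 50-base stretches occur elsewhere, among them in the pseudogene HSP90B2P.
DNAJB9, on chromosome 7 from 108569568 to 108574850 on the plus strand, encodes ERdj4, a J-domain co-chaperone of BiP. It had the fewest reads of the 10 genes, with 177, 426 and 268 counts in shBry and 55, 104 and 103 counts in shNC. These correspond to 9.53, 18 and 11.9 CPM in shBry and 2.52, 4.92 and 5.16 CPM in shNC. The SD reached 33.1% of the mean in shBry and 34.7% in shNC, the widest relative spread of the 10 genes in either group. DNAJB9 rose from a shNC mean of 4.2 ± 1.46 CPM to a shBry mean of 13.1 ± 4.35 CPM (SD, n = 3), which was 1.65 in log2 units (standard error 0.26, adjusted p = 0.000118 in edgeR) or 3.14-fold with an interval of 2.12 to 4.65. Leaving out single libraries gave log2 fold changes from 1.35 to 1.84. THAP5 and PNPLA8 cover 6.74% of its exon bases.
DNAJC3, on chromosome 13 from 95677139 to 95794989 on the plus strand, encodes p58IPK, a J-domain co-chaperone. It had 53.9, 57.3 and 52 CPM in shBry and 27.3, 26 and 33 CPM in shNC, with no overlap. DNAJC3 rose from a shNC mean of 28.8 ± 3.74 CPM to a shBry mean of 54.4 ± 2.7 CPM (SD, n = 3), which was 0.92 in log2 units (standard error 0.11, adjusted p = 7.16e-06 in edgeR) or 1.89-fold with an interval of 1.61 to 2.22.

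Among the degradation genes, HERPUD1 and SEL1L rose, and EDEM1 was under the fold limit. HERPUD1, on chromosome 16 from 56932048 to 56944863 on the plus strand, encodes a membrane protein that helps to assemble the ERAD complex. It had 242, 216 and 234 CPM in shBry and 87.8, 88.9 and 88.6 CPM in shNC. The shNC libraries were nearly equal, with an SD of 0.67% of the mean. HERPUD1 rose from a shNC mean of 88.5 ± 0.593 CPM to a shBry mean of 230.7 ± 13.5 CPM (SD, n = 3), which was 1.38 in log2 units (standard error 0.08, adjusted p = 5.59e-09 in edgeR) or 2.61-fold with an interval of 2.32 to 2.93.
SEL1L, on chromosome 14 from 81471549 to 81533861 on the minus strand, encodes the adaptor of the ubiquitin ligase HRD1. It had 91.4, 141 and 116 CPM in shBry and 49.4, 48.7 and 63.7 CPM in shNC. The groups did not overlap, although shBry replicates 1 and 2 differed more from each other than any shNC libraries did. SEL1L rose from a shNC mean of 53.9 ± 8.45 CPM to a shBry mean of 116 ± 24.6 CPM (SD, n = 3), which was 1.11 in log2 units (standard error 0.14, adjusted p = 1.61e-05 in edgeR) or 2.16-fold with an interval of 1.74 to 2.66. Without shBry replicate 2 the log2 fold change was 0.93, and without shBry replicate 1 it was 1.25.
EDEM1, on chromosome 3 from 5187646 to 5219957 on the plus strand, encodes a mannosidase-like protein that marks misfolded glycoproteins for removal. It had 122, 125 and 127 CPM in shBry and 103, 94.3 and 103 CPM in shNC. The groups did not overlap but lay close together. Its log2 fold change was 0.31 (standard error 0.08, edgeR, adjusted p = 0.00401), or 1.24-fold, and the interval of 1.1 to 1.4 lay under the limit of 1.5. AC026202.3 covers 9.88% of its exon bases, and whether reads were counted by strand is not given in the sources used here.

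**Figure D2:**
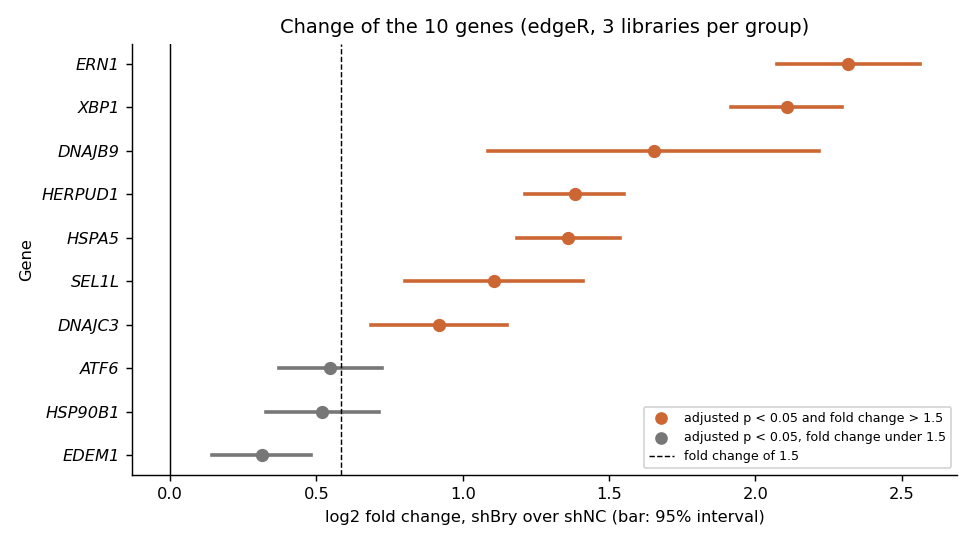
log2 fold change of shBry over shNC for the 10 genes, with 95% intervals from the edgeR fit and a dashed line at a fold change of 1.5. The 7 genes called higher (orange) run from 0.92 for DNAJC3 to 2.32 for ERN1, and the intervals of ATF6 and HSP90B1 (grey) cross the line.

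Per kilobase of exon, the members spanned a wide range of levels and were ordered differently in the 2 groups. In shNC, HSP90B1 was highest with 217 ± 25.3 CPM per kb (SD, n = 3), followed by HSPA5 with 162 ± 6.34, XBP1 with 43.2 ± 1.28 and HERPUD1 with 30 ± 0.201. In shBry, HSPA5 was highest with 416 ± 32 CPM per kb, followed by HSP90B1 with 311 ± 15.7, XBP1 with 186 ± 17.8 and HERPUD1 with 78.3 ± 4.59. The first pair thus changed places, and within each group the libraries of these 4 genes did not overlap.
EDEM1 followed in both groups, with 15.8 ± 0.82 CPM per kb in shNC and 19.7 ± 0.384 in shBry. ATF6, SEL1L and DNAJC3 came next, from 9.33 down to 5.15 CPM per kb in shNC and from 13.6 down to 9.73 in shBry. SEL1L overlapped with DNAJC3 in shNC and with ATF6 in shBry. ERN1 and DNAJB9 were lowest and overlapped with each other in both groups, at 1.03 ± 0.112 and 1.55 ± 0.537 CPM per kb in shNC and at 5.16 ± 0.102 and 4.83 ± 1.6 in shBry. The gene of the IRE1 sensor was thus the lowest in mean level in shNC and had the largest fold change.

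**Figure D3:**
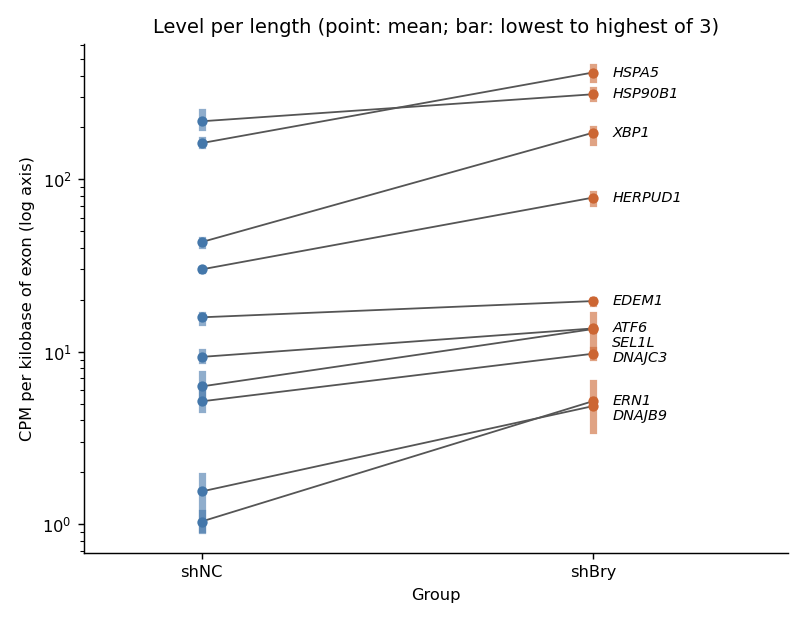
Mean level of each gene in CPM per kilobase of exon (log axis) in shNC and shBry, with bars from the lowest to the highest of 3 libraries. HSPA5 and HSP90B1 change places (162 and 217 in shNC, 416 and 311 in shBry), and ERN1 climbs from 1.03 to 5.16.

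Ratios between members within a library do not depend on how libraries are scaled, and 4 pairs of like role were compared. These ratios rest on the same counts as the fold changes above and are not a separate test of them. HSPA5 had 1.92, 1.69 and 1.86 reads per HSP90B1 read in shBry replicates 1, 2 and 3, and 1.08, 1.06 and 0.938 in shNC replicates 1, 2 and 3. The groups did not overlap, and the log2 ratio was higher by 0.83 in shBry. XBP1 had 4.01, 3.26 and 3.88 reads per ATF6 read in shBry and 1.26, 1.31 and 1.21 in shNC, a difference of 1.55 on the log2 scale. HERPUD1 had 1.98, 1.72 and 1.85 reads per EDEM1 read in shBry and 0.849, 0.943 and 0.858 in shNC, a difference of 1.07. Each of these 3 ratios had p = 0.1 in a two-sided exact permutation test (adjusted p = 0.133 over 4 pairs), which is the smallest p that 3 against 3 libraries allow. DNAJB9 had 0.177, 0.314 and 0.229 reads per DNAJC3 read in shBry and 0.0929, 0.19 and 0.157 in shNC. These groups overlapped, and the difference of 0.73 on the log2 scale had p = 0.2 in the exact permutation test (adjusted p = 0.2).

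**Figure D4:**
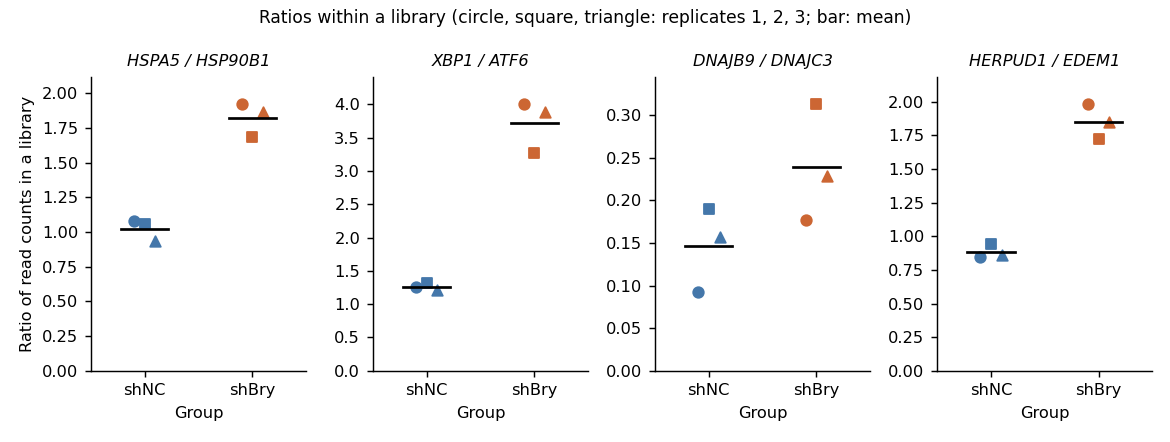
Ratio of the read counts of 2 genes within each library, by group, with replicates 1, 2 and 3 as circle, square and triangle and the mean as a bar. The groups are apart for HSPA5 to HSP90B1, XBP1 to ATF6 and HERPUD1 to EDEM1, and overlap for DNAJB9 to DNAJC3.

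Further genes of the response were taken from 5 lists. Of 23 folding enzymes and co-chaperones of the ER, 6 were called higher (26.1%, beside 17.1% of all tested genes). In this list 1 gene was called lower, beside 15.2% of all tested genes, and 16 were not called, with a median log2 fold change of 0.15. SIL1, the nucleotide exchange factor of BiP, rose from 48.7 ± 3.47 to 90.9 ± 6.65 CPM (log2 fold change 0.90, edgeR, adjusted p = 1.93e-06). DNAJC10, a disulfide reductase of the ER, rose from 56.4 ± 9.19 to 104 ± 11.2 CPM (log2 fold change 0.88, edgeR, adjusted p = 2.07e-05). HYOU1, an ER chaperone, was called with a log2 fold change of 0.78 (edgeR, adjusted p = 0.0126), but its groups overlapped, and the call was lost without shNC replicate 1 (0.54, adjusted p = 0.0547) and without shNC replicate 2 (0.66, adjusted p = 0.0549). The gene called lower was CALR, which encodes calreticulin and was named after its values were seen, with a log2 fold change of -0.61 (edgeR, adjusted p = 1.77e-05). The disulfide isomerase genes PDIA4 and P4HB had the smallest differences, with 303 ± 7.28 and 984 ± 36.4 CPM in shNC and 305 ± 15.7 and 997 ± 57.3 CPM in shBry.

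Of 21 tested ERAD genes beyond the members, 3 were called higher, 2 lower and 16 were not called, with a median log2 fold change of 0.14. The share called higher was 14.3%, beside 17.1% of all tested genes, of which 15.2% were called lower. At an adjusted p under 0.05 in edgeR without the fold limit, 7 were higher and 4 lower, beside 28% and 25.3%. The groups did not overlap for 10 higher and 4 lower genes, where 30.6% and 28.9% of all tested genes had these orders. VIMP (now SELENOS), a membrane partner of the p97 ATPase, rose from 57.2 ± 0.574 to 137 ± 16.5 CPM (log2 fold change 1.26, edgeR, adjusted p = 9.98e-08). NGLY1, the cytosolic N-glycanase, rose from 27.6 ± 0.927 to 48.8 ± 2.23 CPM (log2 fold change 0.83, edgeR, adjusted p = 5.69e-06). UFD1L, which encodes a p97 cofactor, fell from 106 ± 1.83 to 52.9 ± 9.22 CPM (log2 fold change -1.003, edgeR, adjusted p = 4.32e-06). The other gene called lower was VCP, which encodes p97 itself and was named after its values were seen. It fell from 758 ± 29.5 to 485.5 ± 30.85 CPM (log2 fold change -0.64, edgeR, adjusted p = 1.04e-05). OS9, a lectin gene of this list, had a log2 fold change of 0.05.
Of 13 tested genes for other parts of the IRE1 and ATF6 branches, 2 were called higher (15.4%, beside 17.1% of all tested genes). None was called lower, beside 15.2% of all tested genes, and 11 were not called. At an unadjusted p under 0.05 in edgeR, 4 had a lower level, a count for which the share of all tested genes was not computed. At an adjusted p under 0.05 in edgeR, 5 were higher and 3 lower, beside 28% and 25.3% of all tested genes. MBTPS2, the site-2 protease that releases ATF6, rose from 12.8 ± 2.55 to 21.7 ± 3.15 CPM (log2 fold change 0.76, edgeR, adjusted p = 0.000955). MBTPS1, the site-1 protease that cuts ATF6 first, was not called and had 236 ± 10.4 CPM in shNC and 177 ± 8.4 CPM in shBry (log2 fold change -0.42, edgeR, adjusted p = 0.000451). RTCB, the ligase that rejoins XBP1 mRNA, was not called either and had 109 ± 5.77 CPM in shNC and 73.3 ± 7.74 CPM in shBry (log2 fold change -0.57, edgeR, adjusted p = 0.000131). Both were named after their values were seen. Their shBry libraries lay below all shNC libraries, as in 28.9% of all tested genes. CREB3L2, a membrane-bound factor related to ATF6, rose from 38.7 ± 4.9 to 69.8 ± 6.12 CPM (log2 fold change 0.85, edgeR, adjusted p = 1.54e-05). TMBIM6, whose protein dampens IRE1, and CREB3 had log2 fold changes of -0.07 and 0.11. ATF6B had between 1 and 5 counts per library, and RNF5 of the ERAD list had 0. Both lie between GNL1 and RING1 on chromosome 6, where 84 of 115 coding genes in the table were listed at 0, so their level cannot be read here. DERL3 and ERN2 were also at 0 in all libraries.

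Active IRE1 also degrades other mRNAs, and 7 genes described as substrates of this decay were followed. Of these, 1 was called higher (14.3%, beside 17.1% of all tested genes), 1 lower (beside 15.2%) and 5 were not called. The median log2 fold change of the 7 genes was -0.30. SCARA3, a scavenger receptor gene, fell from 32.8 ± 2.15 to 10.5 ± 0.494 CPM (log2 fold change -1.64, edgeR, adjusted p = 5.21e-08). COL6A1, a collagen gene, rose from 176 ± 17.3 to 368 ± 7.26 CPM (log2 fold change 1.07, edgeR, adjusted p = 1.53e-07). HGSNAT and PDGFRB had log2 fold changes of -0.03 and 0.07. At an adjusted p under 0.05 without the fold limit, 4 of the 7 were lower and 1 higher, where 25.3% of all tested genes were lower.

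The PERK branch and targets of the transcription factor ATF4, which other kinases than PERK can also induce, were followed with 12 genes in 1 list. Of these, 10 were called higher (83.3%, beside 17.1% of all tested genes), none lower and 2 were not called, and the 12 genes had a median of 2.04 in log2 units. The genes not called were those of PERK and of its substrate. At an adjusted p under 0.05 in edgeR without the fold limit, 11 were higher and 1 lower, beside 28% and 25.3% of all tested genes. CHAC1, a glutathione-degrading enzyme gene, rose from 8.98 ± 0.288 to 116 ± 8.87 CPM (log2 fold change 3.69, edgeR, adjusted p = 3.67e-12). PPP1R15A, a phosphatase subunit gene that restores translation, had a log2 fold change of 3.12 (edgeR, adjusted p = 1.29e-11), and ATF3, a transcription factor gene, had 3.05 (edgeR, adjusted p = 2.41e-11). The gene of the PERK sensor itself, EIF2AK3, was not called, with 14 ± 0.968 CPM in shNC and 19.7 ± 3.6 in shBry (log2 fold change 0.49, edgeR, adjusted p = 0.011). Without shBry replicate 1 its log2 fold change was 0.63 (edgeR, adjusted p = 0.00107), past the limit. EIF2S1, the gene of the kinase's target subunit, had a log2 fold change of -0.37 (edgeR, adjusted p = 0.0028). The difference between the lists was not tested.

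**Figure D5:**
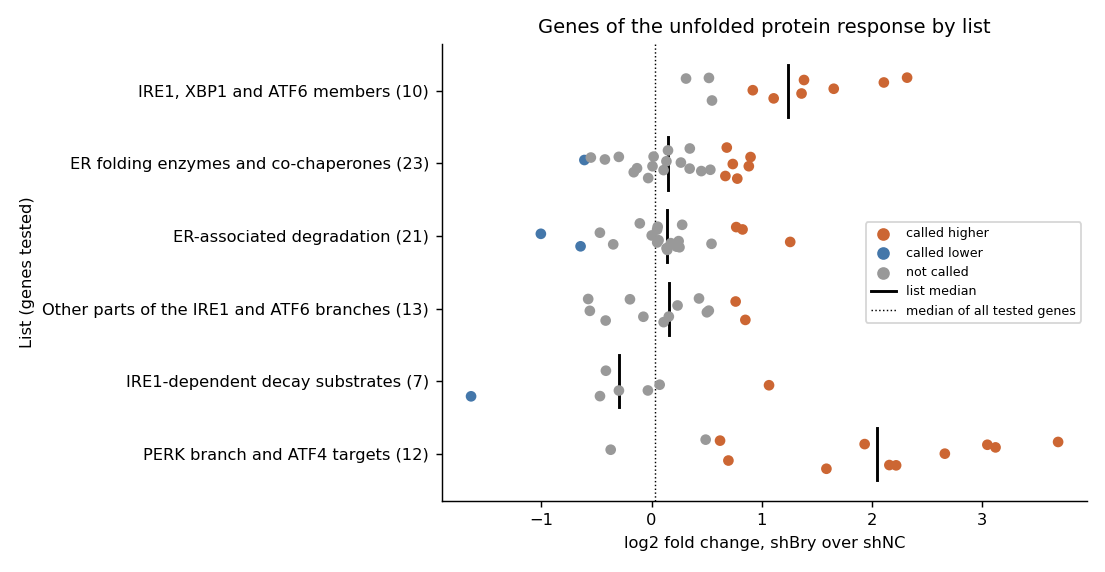
log2 fold change of shBry over shNC for each tested gene of the 10 members and of 5 further lists, coloured by call, with list medians as bars and the median of all tested genes (0.03) dotted. The members (median 1.23) and the list of the PERK branch and ATF4 targets (median 2.04) lie mostly to the right. The medians of the folding enzymes (0.15) and ERAD genes (0.14) lie close to the dotted line. Their genes lie on both sides, from -0.61 to 0.90 and from -1.003 to 1.26.

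The genes whose promoter windows hold ERSE or ERSE-II were followed as well, a set chosen by sequence after the members' values were known. Of 44 such genes, 31 were tested, and 10 were called higher and 6 lower. Of all tested genes, 17.1% were called higher and 15.2% lower. The median log2 fold change of the 31 genes was -0.03. Without the members XBP1, HSPA5, HSP90B1 and HERPUD1, 27 were tested, 7 were called higher and 6 lower, with a median of -0.16. Named after their values were seen, FICD, an ER enzyme gene that modifies BiP, had a log2 fold change of 1.12 (edgeR, adjusted p = 5.82e-05), SERP1, a translocon-associated gene, had 0.79 (edgeR, adjusted p = 4.58e-05), and CANX, the calnexin gene, had 0.74 (edgeR, adjusted p = 8.57e-06). CALR and PDIA6, also with ERSE, had -0.61 and -0.03, so genes with the element lay on both sides of 0.

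The profiles most like those of HSPA5 and XBP1 were sought among 9413 genes whose mean level reached 10 CPM, by the root mean square difference of centred log2 levels over the 6 libraries. For HSPA5 they were IRF1 (difference 0.0451), COX19 (0.0613) and SNHG8 (0.0686), with log2 fold changes of 1.41, 1.40 and 1.49. For XBP1 they were KLF4 (0.0525), PLD6 (0.0576) and MTHFD2 (0.0691), with log2 fold changes of 2.20, 2.18 and 2.05. None of these 6 genes is in the lists used here, which do not hold every gene of the response.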

How the data were processed

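Total RNA of 3 MDA-MB-231 shBry and 3 MDA-MB-231 shNC samples was sequenced, on an instrument not given in the sources used here. The authors deposited raw counts, the number of reads per gene symbol and library, without normalization. The submitters' processing notes name HISAT2 2.0.4, HTSeq and GRCh38. Annotation and strand setting are not given in the sources used here.

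Genes were filtered with filterByExpr (minimum count 10), scaled by TMM and compared with edgeR 4.0.16 in R 4.3.3, called at a Benjamini-Hochberg adjusted p under 0.05 and a fold change over 1.5. Standard errors are the log2 fold change divided by the square root of F, and intervals cover 95%. Count ratios used an offset of 0.5 and scipy 1.17.1. Exon lengths, positions and overlaps came from GENCODE 29, matched by symbol, and promoters from RefSeq. The scripts were tested on simulated data. Of the same-numbered libraries, only the replicate 1 pair deviated together, so no pairing was assumed. Libraries of a group differed by more than sampling noise (chi-square per degree of freedom 5 to 16.8). In the shallowest library, a gene at 0 may still have up to 0.155 CPM (3 counts, counting error only).

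The members, lists and the rule for named genes (every member, and in each list the 3 largest called changes and the 2 smallest) were chosen with earlier results of these data known. Alternatives were library totals without TMM, DESeq2 1.42.0, limma-voom (limma 3.58.1), other filters, other p and fold limits, a replicate block and each library left out. ChIP-seq data were not analysed here. For 1 gene picked by this rule, no value is reported here.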

Additional observations from a re-analysis of the deposited data

How the results depend on the processing

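The direction of the 10 members was positive in every alternative, and their median log2 fold change with each library left out lay between 1.14 and 1.30. Between 7 and 8 members were then called, the eighth being HSP90B1 without shNC replicate 3. DNAJC3 lost its call with a fold change limit of 2. The fold change limit moved the counts most. With a limit of 2, 2297 genes were called over all in either direction, and 8.21% of all tested genes were called higher. In the lists, 0 folding genes, 1 ERAD gene, 0 genes of the other branch parts and 8 genes of the PERK branch and ATF4 targets were called higher. At that limit 6 members were still called. Without a limit, 8139 genes were called over all in either direction, with 28% of all tested genes higher and 25.3% lower. In the lists, 11 of 23 folding genes, 7 of 21 ERAD genes and 5 of 13 genes of the other branch parts were then called higher. So were 11 of 12 genes of the PERK branch and ATF4 targets, and 4 of 7 decay substrates were called lower. With each library left out, between 4587 and 5025 genes were called over all, 4 to 6 folding genes, 2 to 4 ERAD genes, 2 genes of the other branch parts and 9 to 10 genes of the PERK branch and ATF4 targets were called higher, and 1 decay substrate was called lower. The log2 ratios kept their sign with each library left out, at 0.77 to 0.89 for HSPA5 to HSP90B1, 1.50 to 1.64 for XBP1 to ATF6, 1.02 to 1.12 for HERPUD1 to EDEM1 and 0.44 to 0.95 for DNAJB9 to DNAJC3.

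The labels number the libraries 1 to 3 in each group. The deviations of same-numbered libraries from their group means correlated at 0.50, -0.30 and -0.11 over 9413 genes, so the numbers were not taken as pairs. Across numbers the correlations ran from -0.56 (shBry replicate 1 with shNC replicate 3) to 0.54 (shBry replicate 2 with shNC replicate 3). What these libraries share was not tested. With the replicate number as a block, 7 members were called higher and 0 lower, and 4914 genes were called over all. No call then changed on a member or on a gene named by the rule. The calls on CALR, CALB2, CAV1, VCP, FICD, SERP1, CANX, MBTPS1 and RTCB, named outside the rule, were not compared between alternatives. Depth limits DNAJB9 most, which had 55 counts in its lowest library.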
